A study of Gallus gallus with 10 samples.

Results

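CSPG5 (ENSGALG00000032184) and LRFN5 (ENSGALG00000012505) encode proteins of the neural cell surface, and they are 2 of the 11324 genes counted in the preoptic anterior hypothalamus (PO/AH) of chicks. They were taken by their identifiers after the difference between the groups described here had been seen. The same counts therefore chose them, and their difference is given as a description without a test. RNA was compared between 5 libraries from chicks 6 h after intracranial injection of the hsa-miR-200a-3p mimic and 5 libraries from naïve chicks. All were Cobb broilers aged 3 days. The mimic is a synthetic double strand that stands in for the mature microRNA, here with the human sequence name. Naïve chicks had received no injection, so the mimic and the injection itself cannot be told apart in this comparison, and no libraries from chicks given a negative-control mimic were analysed here.

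CSPG5, also called neuroglycan C and in the chicken CALEB, is a transmembrane proteoglycan that carries chondroitin sulfate chains and an EGF-like domain outside the cell. It binds tenascins of the brain matrix and is known for roles in the growth of dendrites and the maturation of synapses. LRFN5, also called SALM5, spans the membrane once and carries leucine-rich repeats, an immunoglobulin-like domain and a fibronectin type III domain. In mammals it sits on the postsynaptic side and binds receptor phosphatases of the LAR family on the presynaptic side. In the RefSeq annotation of assembly GRCg7b, matched by symbol, CSPG5 lies between SMARCC1 and ELP6 and has 2 transcripts that encode 2 proteins, and LRFN5 has 2 transcripts that encode 1 protein. Counts were made on another assembly, galGal5, so no coordinates are given. miR-200a belongs to a microRNA family known in mammals for repressing the transcription factors ZEB1 and ZEB2.

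Libraries were made by bulk MARS-seq, which tags each transcript near its 3′ end with a unique molecular identifier (UMI), so that a count stands for a molecule and not for a read. Total counts were 3598695 to 4511597 per library after the mimic and 2104121 to 5503185 per naïve library. Naïve library 7 was the shallowest and had a first principal component score of −24.66, where the other 9 libraries lay between −9.37 and 12.6. The fold changes of CSPG5 and LRFN5 are given without it as well. Their likeness to other genes was computed without it only for CSPG5 with FXYD2 and for LRFN5 with RAMP2. Levels are given as CPM, the counts scaled to library total with TMM factors, and libraries carry their deposited numbers. A 3′ tag count does not grow with the length of a gene, so levels were not divided by length.

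CSPG5 had 111, 156, 161, 230 and 190 counts in mimic libraries 2, 4, 6, 9 and 10, against 338, 333, 219, 323 and 132 in naïve libraries 2, 3, 4, 6 and 7. Scaled to depth, these counts were 31.1, 40.7, 36.5, 53.1 and 49.2 CPM in the mimic libraries and 61.1, 58.4, 58.4, 62.2 and 66.9 CPM in the naïve libraries. Each mimic library lay below each naïve library, with a gap of 5.26 CPM between the nearest libraries of the groups. The mean was 42.1 ± 9.04 CPM after the mimic and 61.4 ± 3.51 CPM in naïve chicks (SD, n = 5 each). The fitted log2 fold change was −0.54 (standard error 0.15), a level 0.688 times that of naïve chicks.

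The nearest libraries were close for the depth at hand. Mimic library 9 had an exact 95% binomial interval of 46.5 to 60.5 CPM, and naïve library 3 had one of 52.3 to 65.0 CPM. These intervals, which cover counting error only, overlapped. Over all genes tested, 0.513% had each mimic library below each naïve library and 1.09% had each above, and since CSPG5 was chosen on these counts nothing is read from its place among them.

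LRFN5 was counted less often, with 47, 34, 50, 70 and 43 counts in mimic libraries 2, 4, 6, 9 and 10 and 151, 117, 67, 111 and 29 in naïve libraries 2, 3, 4, 6 and 7. Its levels were 13.2, 8.87, 11.3, 16.2 and 11.1 CPM in the mimic libraries, against 27.3, 20.5, 17.9, 21.4 and 14.7 CPM in the naïve libraries. The groups overlapped, because mimic library 9 lay above naïve library 7. In 24 of the 25 pairs of a mimic and a naïve library, the mimic library was the lower. The mean was 12.1 ± 2.72 CPM after the mimic and 20.4 ± 4.67 CPM in naïve chicks (SD, n = 5 each). The log2 fold change was −0.76 (standard error 0.20), a level 0.590 times that of naïve chicks.

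The overlap lay between mimic library 9, which held the most LRFN5 counts of its group, and naïve library 7, which held the fewest of all with 29. Their exact 95% binomial intervals were 12.6 to 20.4 CPM for mimic library 9 and 9.85 to 21.1 CPM for naïve library 7. Of all genes tested, 2.98% had at least 4 mimic libraries below each naïve library, as LRFN5 did, and nothing is read from this since the gene was chosen on these counts.

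**Figure D1:**
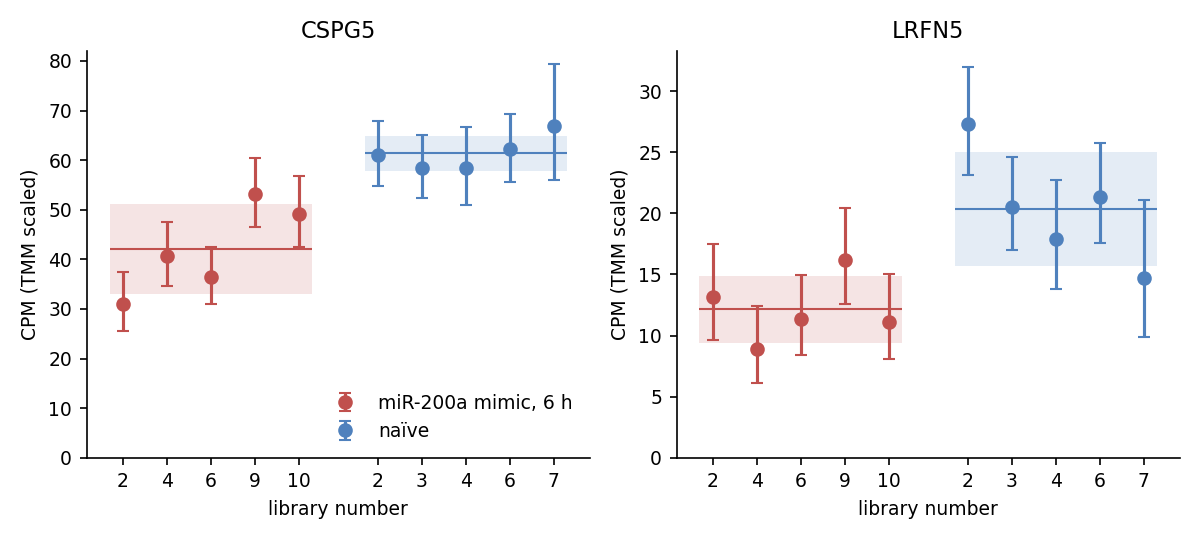
Level of CSPG5 (left) and LRFN5 (right) in each library, in TMM-scaled CPM, with miR-200a mimic libraries on the left of each panel and naïve libraries on the right. Bars are exact 95% binomial intervals of counting error, lines are group means and bands are ±1 SD (n = 5 each): CSPG5 groups do not overlap, while LRFN5 in mimic library 9 (16.2 CPM) lies above naïve library 7 (14.7 CPM).

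The quasi-likelihood test of edgeR, with Benjamini-Hochberg adjustment, ran over the 8585 genes that passed a filter on low counts. Calls needed an adjusted p up to 0.05, a change of at least 1.5-fold in either direction and at least 30 counts in the highest library. Both CSPG5 and LRFN5 passed the filter. edgeR called 0.163% of the genes tested, 12 higher (0.140%) and 2 lower (0.0233%), and 0 of CSPG5 and LRFN5. CSPG5, at 0.688 times the naïve level, fell short of the 1.5-fold change that a call needs, whatever its p. LRFN5, at 0.590 times, passed the fold threshold and not the one on adjusted p. DESeq2 at the settings of the study called 0.478% of genes, with 0.0582% called lower, and limma-voom called 8 higher and 2 lower. Neither called CSPG5 or LRFN5. CSPG5 again fell short of the fold threshold, at a log2 fold change of −0.54 with DESeq2 and −0.55 with limma-voom. At an unadjusted p of 0.05 edgeR passed both, along with 7.45% of all genes tested, and nothing is read from these counts because the same contrast chose the pair.

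Among all genes tested, 389 had a more negative log2 fold change than CSPG5, which is 4.53%, and 142 had a more negative one than LRFN5, which is 1.65%. The median log2 fold change over all genes was −0.0042. The study listed genes as lower after the mimic at an adjusted p up to 0.1, looser than the 0.05 of the calls above. Of the genes on that list, 19 were tested, and LRFN5 was the 12th and CSPG5 the 16th from the most negative. CSPG5 lay toward the small end of that list and LRFN5 nearer its middle. Nothing is read from these ranks, since the list was chosen on these libraries.

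**Figure D2:**
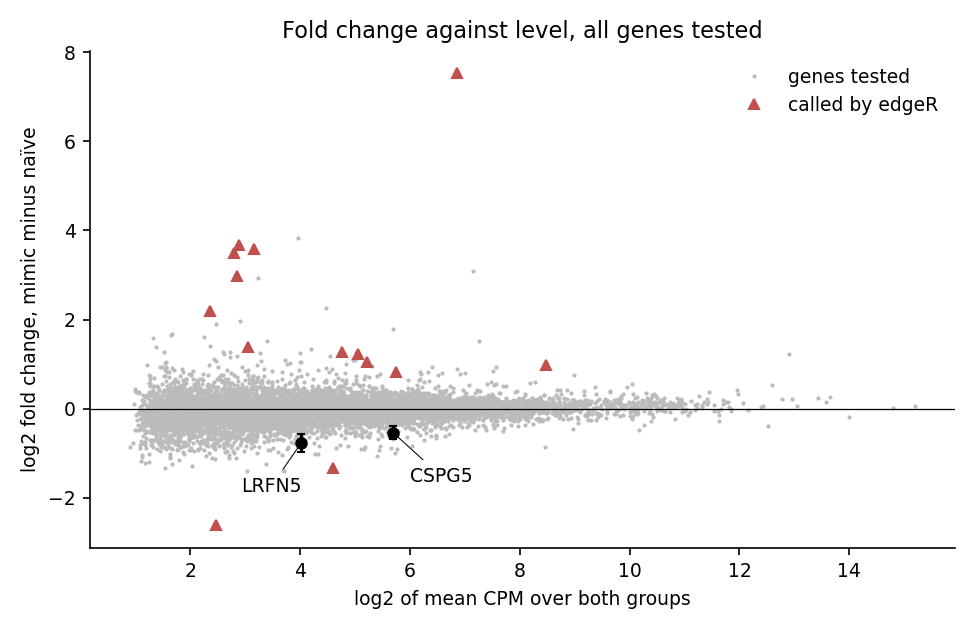
Log2 fold change, mimic minus naïve, against the log2 of mean CPM for the 8585 genes tested (grey points), with the 14 genes called by edgeR as triangles. CSPG5 at −0.54 and LRFN5 at −0.76 are the black points with standard errors, at the lower edge of the cloud for their levels and within it.

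In both groups CSPG5 lay above the middle of the genes tested by level, and LRFN5 lay below it. CSPG5 stood higher than 62.1% of the genes tested in mimic libraries and higher than 71.3% in naïve libraries, by mean CPM. LRFN5 stood higher than 33.6% and 44.9% in the mimic and the naïve libraries. Counts of CSPG5 were 2.36 to 4.59 times those of LRFN5 in mimic libraries and 2.24 to 4.55 times in naïve libraries. The mean of this count ratio was 3.57 ± 0.925 after the mimic and 3.16 ± 0.860 in naïve chicks (SD, n = 5 each), a difference smaller than the spread within either group.

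The spread between libraries of a group is given for the pair as a description. CSPG5 had a coefficient of variation of 21.5% among mimic libraries and of 5.71% among naïve libraries, where counting error alone would give 7.70% and 6.63%. The spreads of the groups were not compared by a test. For LRFN5 the coefficient was 22.4% among mimic libraries and 23.0% among naïve libraries, against 14.4% and 11% from counting. The highest library held 1.71 times the lowest for CSPG5 after the mimic and 1.15 times in naïve chicks. For LRFN5 these ratios were 1.82 and 1.86.

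Leaving out single libraries moved the fold changes and turned none of them round. CSPG5 ranged from −0.64 without mimic library 9 to −0.45 without mimic library 2, on the log2 scale. LRFN5 ranged from −0.89 without mimic library 9 to −0.64 without naïve library 2. Without naïve library 7 the values were −0.51 for CSPG5 and −0.84 for LRFN5. Mimic library 9, the highest mimic library for both genes, was thus the one that most reduced the size of both differences. Thinning all libraries to the total of the smallest gave −0.49 for CSPG5 and −0.84 for LRFN5.

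**Figure D3:**
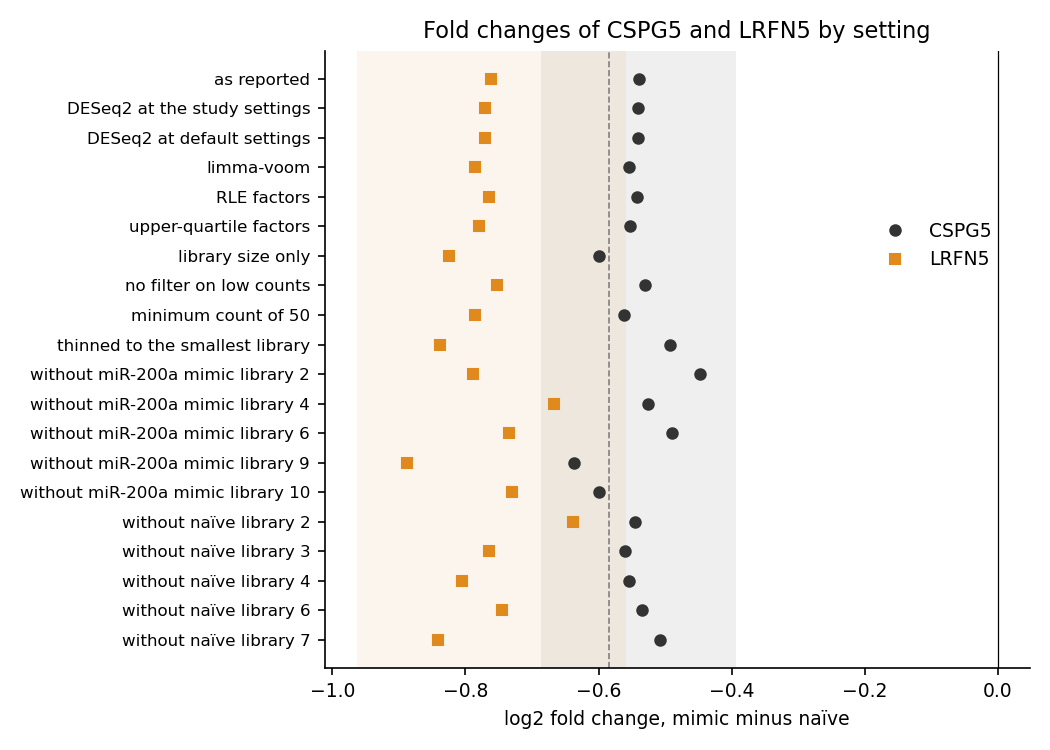
Log2 fold change of CSPG5 (circles) and LRFN5 (squares), mimic minus naïve, under each of 20 settings, with shading for ±1 standard error of the reported value and a dashed line at a fold change of 1.5. All values are below 0; those without single libraries run from −0.64 to −0.45 for CSPG5 and from −0.89 to −0.64 for LRFN5.

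Whether the pair varied together inside a group is a question that the difference between groups does not answer. After the group mean was removed from each log2 CPM, CSPG5 and LRFN5 had a Pearson r of 0.084 over the 10 libraries (permutation test within groups, two-sided, p = 0.854). Spearman's rho was −0.018 (permutation test, p = 0.973). Without mimic libraries 2 and 9, the farthest from the median in CSPG5, r was −0.17. Within groups of 5 libraries r was 0.25 after the mimic and −0.45 in naïve chicks, values of opposite sign that are given as a description. Without naïve library 7 the r over both groups was 0.24 (permutation test, p = 0.639, n = 9). Leaving out mimic library 9 alone gave an r of −0.38 (permutation test, p = 0.25, n = 9). Counting error limits what these values can show. Among naïve libraries the coefficient of variation of CSPG5 was 5.71%, where counting error alone would give 6.63%. A low r is thus no evidence that the pair varied apart.

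Naïve library 7 and mimic library 2 ranked differently for CSPG5 and LRFN5, by differences that lay partly within counting error. Naïve library 7 had the highest CSPG5 and the lowest LRFN5 of the naïve libraries. Mimic library 2 had the lowest CSPG5 of the mimic libraries, at 31.1 CPM, and the second highest LRFN5, at 13.2 CPM. Mimic library 9 was the highest of its group for both.

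Likeness to other genes was measured as Pearson's r in log2 CPM over the 10 libraries, as a description. The search covered the 112 other tested genes that had a symbol and a mean of at least 5 CPM. Most of these were named in the lists that the study drew from the same contrast, so a high r over both groups is partly fixed by that choice. For CSPG5 the highest was FXYD2, a regulatory subunit of the sodium pump, with an r of 0.91, second among all 8584 other genes tested. TREM2, a lipid receptor of microglia, had 0.84, AHDC1 0.80, the phospholipid transfer protein gene PLTP 0.73 and RAMP2 0.73.

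FXYD2 was at 0.841, 2.35, 0.227, 2.31 and 1.81 CPM in mimic libraries 2, 4, 6, 9 and 10, and at 9.40, 7.89, 8.0, 9.24 and 13.2 CPM in naïve libraries 2, 3, 4, 6 and 7. Like CSPG5 it was lower in mimic libraries 2 and 6 than in mimic libraries 4, 9 and 10, and highest of all in naïve library 7. FXYD2 had only 3, 9, 1, 10 and 7 counts in mimic libraries 2, 4, 6, 9 and 10. Its order among the mimic libraries thus rests on a few molecules. With group means removed the r between FXYD2 and CSPG5 was 0.70, and 218 of the genes tested, FXYD2 included, had an r as high. Without naïve library 7 the r was 0.89 over both groups and 0.68 with group means removed, and without any 1 library the r with group means removed lay between 0.62 and 0.80. The highest of the named genes on that scale was YRK, a Src-family kinase gene, with 0.81. EIF3E, a subunit of a translation initiation factor, had 0.73, the glucose transporter SLC2A1 0.64 and PRR5, a partner of mTOR complex 2, 0.59. YRK, EIF3E, SLC2A1 and PRR5 came 52nd, 156th, 343rd and 460th among all 8584 other genes tested. Their means were higher after the mimic, where that of CSPG5 was lower, so this likeness lay inside the groups only.

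LRFN5 was most like RAMP2, with an r of 0.95, the highest among all 8584 other genes tested. RAMP2 encodes a partner of the calcitonin receptor-like receptor that turns it into a receptor for adrenomedullin. RAMP2 was at 25.2, 19.6, 24.5, 31.6 and 22.5 CPM in mimic libraries 2, 4, 6, 9 and 10, against 37.6, 37.0, 31.5, 41.2 and 30.9 CPM in naïve libraries 2, 3, 4, 6 and 7. The overlap between groups was the same as for LRFN5 in that mimic library 9 reached into the range of the naïve libraries. For RAMP2 the log2 fold change came to −0.53 with a standard error of 0.15 (edgeR, adjusted p = 0.367), and it is among the genes that the study listed as lower.

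RAMP2 remained the nearest named gene to LRFN5 with group means removed, at an r of 0.87, eighth among all genes tested. Without naïve library 7 this r was 0.86, and over both groups it was 0.96. With group means removed the co-chaperone BAG3 had 0.69, STAT6 0.66 and the transglutaminase TGM2 0.62. They came 152nd, 218th and 339th among all 8584 other genes tested. BAG3, STAT6 and TGM2 had higher means after the mimic, so their likeness to LRFN5 lay inside the groups only. Over both groups the next after RAMP2 were the cyclin gene CCNI with 0.81, the chemerin gene RARRES2 with 0.79, the importin gene KPNB1 with 0.73 and the keratin gene KRT20 with 0.71. CSPG5 itself came 163rd among the genes tested by likeness to LRFN5, with an r of 0.67 over both groups.

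**Figure D4:**
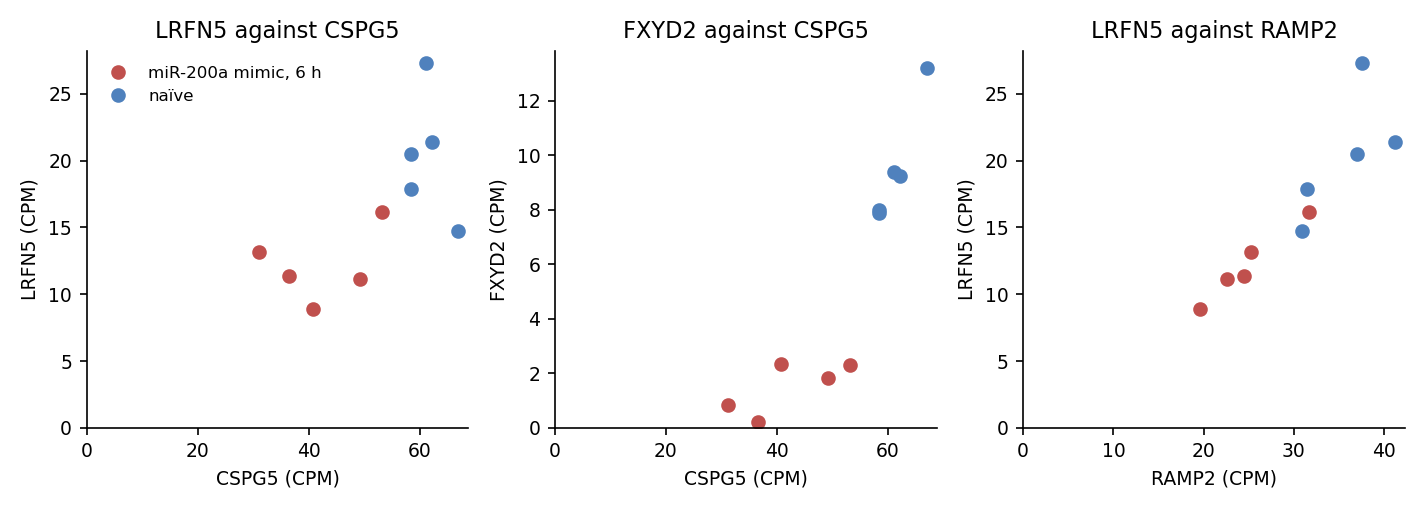
CPM of LRFN5 against CSPG5 (left), FXYD2 against CSPG5 (middle) and LRFN5 against RAMP2 (right), each point a library, miR-200a mimic in red and naïve in blue. With group means removed, LRFN5 had an r of 0.87 with RAMP2 and of 0.084 with CSPG5. RAMP2 was picked as the most like LRFN5 of 112 named genes and CSPG5 was not, so the values are not alike.

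The pathways around the pair could be followed only where a name could be matched. Identifiers in the counts carry no symbols, and 137 of the 11324 were named here through the lists published with the study. Of 122 genes on pathway lists (LRFN relatives, LAR phosphatases, other synaptic adhesion genes, brain proteoglycans, chondroitin sulfate synthesis, neuregulins and ErbB receptors, postsynaptic receptors and miR-200 targets), 0 were matched other than CSPG5 and LRFN5. No statement is made about these lists. None of the genes on the marker lists for astrocytes, oligodendrocytes and their precursors was matched, and 0 of 15 genes marking the hypothalamus and preoptic area were, so the tissue label was not checked here.

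Of 12 other neural genes sought, 9 were matched through a list drawn from sperm DNA methylation, which was not chosen on these libraries, and 7 passed the filter. The 12 themselves were picked with earlier results of these data known, and after it was known which identifiers have names. edgeR called 0 of the 7, against 0.163% of all genes tested, and 1 had an unadjusted p under 0.05, which 7.45% of all genes tested had. DESeq2 at the study settings and limma-voom also called 0. The median log2 fold change of the 7 was −0.23, with 6 of 7 below 0, against −0.0042 over all genes tested, of which 4358 of 8585 lay below 0. Whether neuronal RNA as a whole was lower was not tested, and bulk tissue would not tell fewer neurons from less RNA per neuron.

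RBFOX3, which encodes the neuronal nuclear protein NeuN, was the 1 of 16 neuron markers that could be matched. It was at 67.8, 53.2, 96.8, 94.0 and 110.6 CPM in mimic libraries 2, 4, 6, 9 and 10, against 130.3, 118.4, 91.2, 100.7 and 138.4 CPM in naïve libraries 2, 3, 4, 6 and 7. The groups overlapped, with mimic libraries 2 and 4 below each naïve library. The log2 fold change was −0.45 (standard error 0.18, unadjusted p = 0.0285 and adjusted p = 0.612 from edgeR). Over the alternatives that adjusted p ran from 0.453 to 0.989.

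Counts of CSPG5 and LRFN5 relative to RBFOX3 moved less than their CPM. This follows from RBFOX3 itself being lower after the mimic, at a log2 fold change of −0.45. Ratios to the other neural genes were not computed. Their log2 fold changes ran from −0.89 for DLX2 to 0.19 for SIX4, with SCG3 at −0.097. The log2 ratio of CSPG5 to RBFOX3 was −0.98 ± 0.39 after the mimic and −0.90 ± 0.21 in naïve chicks (SD, n = 5 each), a difference of −0.081, and 17 of 25 pairs of libraries had the mimic library lower. For LRFN5 the log2 ratio was −2.77 ± 0.40 after the mimic and −2.51 ± 0.41 in naïve chicks (SD, n = 5 each), a difference of −0.25, with the mimic library lower in 20 of 25 pairs. Naïve library 7 had an LRFN5 to RBFOX3 log2 ratio of −3.21, and those of the remaining 4 ran from −2.52 to −2.23. Both differences were smaller than the spread within the groups, which includes the spread of RBFOX3 itself. The part of neuronal RNA content in the values of CSPG5 and LRFN5 was not tested, and the ratios above use a single marker, RBFOX3.

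The other 6 neural genes had fold changes on both sides of those of CSPG5 and LRFN5, and none was called. SCG3, a granin of secretory vesicles, was at 193.2 ± 27.1 CPM after the mimic and 206.6 ± 21.2 CPM in naïve chicks (SD, n = 5 each), and its log2 fold change was −0.097 with a standard error of 0.12 (edgeR, adjusted p = 0.894). GPR37L1, a receptor of astrocytes, had −0.23 (standard error 0.14, adjusted p = 0.764 from edgeR), and NPTX2, a neuronal pentraxin of excitatory synapses, had −0.27 (standard error 0.23, adjusted p = 0.841 from edgeR). DLX2, a transcription factor of GABAergic neurons, had −0.89 with a standard error of 0.47 (adjusted p = 0.724 from edgeR), and its levels ran from 7.85 to 37.2 CPM after the mimic and from 17.9 to 52.7 CPM in naïve chicks. GDAP1L1 had −0.072 and SIX4 had 0.19 (adjusted p = 0.936 and 0.935 from edgeR). Leaving out single libraries moved these values by more than 1.5 times. The log2 fold change of SCG3 ran from −0.16 without mimic library 4 to −0.038 without mimic library 6, and that of GPR37L1 from −0.28 without naïve library 2 to −0.12 without naïve library 7. That of NPTX2 ran from −0.40 without naïve library 6 to −0.14 without naïve library 2, and that of DLX2 from −1.38 without mimic library 6 to −0.63 without naïve library 4. SIX4 ran from 0.035 without naïve library 4 to 0.44 without naïve library 7. GDAP1L1 ran from −0.13 without naïve library 7 to −0.0052 without naïve library 3.

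**Figure D5:**
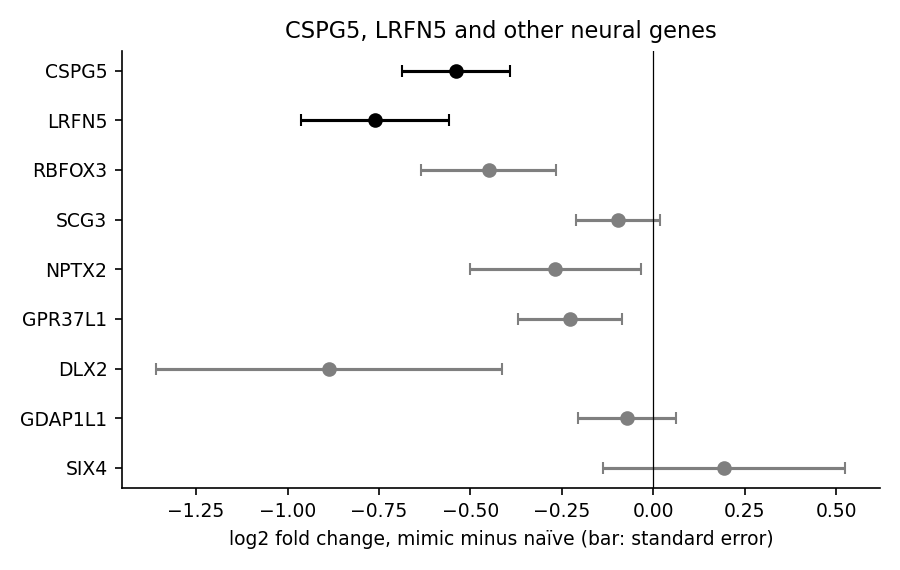
Log2 fold change, mimic minus naïve, of CSPG5 and LRFN5 (black) and of 7 other neural genes that were tested (grey), with standard errors from edgeR. RBFOX3 at −0.45 is near CSPG5 at −0.54, SCG3 at −0.097 and GDAP1L1 at −0.072 are near 0, and DLX2 at −0.89 has the widest error.

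The 5 of 10 microglial markers that were matched (TREM2, C1QA, C1QB, C1QC and SPI1) summed to 137.5 to 194.7 CPM in mimic libraries and to 72.1 to 105.1 CPM in naïve libraries. TREM2 lay lower after the mimic in each library, and the other 4 lay higher. All were in lists that the study drew from this contrast, as were the markers that follow. FOLR1, the matched marker of choroid plexus, was at 0 to 0.280 CPM in mimic libraries and 0.175 to 26.9 CPM in naïve libraries, with its highest value in naïve library 7. SLC6A13, which marks meninges, was at 0 to 0.261 CPM in mimic libraries and 0 to 13.2 CPM in naïve libraries, where naïve libraries 3 and 6 had 13.2 and 13.1 CPM and the others at most 1.01 CPM. The part of these cell types in the levels of CSPG5 and LRFN5 was not tested, and without naïve library 7 the fold changes were those given above. Log2 fold changes without naïve library 3 were −0.56 for CSPG5 and −0.76 for LRFN5, and without naïve library 6 they were −0.53 and −0.75. Each of these fits kept the other library with high SLC6A13, and no fit left out both.

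The gene ontology analysis of the study put CSPG5 with TREM2 and FOLR1 under response to axon injury. It put LRFN5 with TREM2 and LPCAT3 under negative regulation of response to external stimulus. These sets were drawn from genes lower in this contrast and are no independent evidence of direction. TREM2 had a log2 fold change of −0.85 and the phospholipid acyltransferase gene LPCAT3 had −0.43, and edgeR gave both an adjusted p of 0.320. Deviations from the group means had an r of 0.56 between TREM2 and CSPG5, 0.077 between TREM2 and LRFN5 and −0.22 between LPCAT3 and LRFN5 over 10 libraries. LPCAT3 was at 91.6, 77.8, 84.5, 71.8 and 78.7 CPM in mimic libraries 2, 4, 6, 9 and 10, against 111.0, 99.6, 93.4, 112.4 and 129.8 CPM in naïve libraries 2, 3, 4, 6 and 7. In LPCAT3 mimic library 9 was the lowest of its group, where it was the highest for LRFN5.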

How the data were processed

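Bulk MARS-seq libraries of PO/AH RNA were analysed, 5 after the miR-200a mimic and 5 naïve. Per the labels and methods, the authors trimmed reads with cutadapt, aligned them by STAR to gene 3′ ends of galGal5, collapsed UMIs, counted with HTSeq and corrected for saturation, with tool versions not given in the sources used here. Deposited values, as far as they were used, are raw UMI counts per gene. The 10 deposited columns of normalized counts were not used. Groups came from the condition in each column name. The labels do not say whether a library was 1 chick, so p-values measure the spread between libraries, which may be technical.

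The analysis ran in R 4.3.3, with edgeR 4.0.16 (filterByExpr with a minimum count of 10, TMM, robust quasi-likelihood test, two-sided, Benjamini-Hochberg), DESeq2 1.42.0 and limma 3.58.1. The test was checked on simulated data. Log2 CPM used a prior count of 2, ratios a pseudocount of 0.5, permutation tests 100000 draws within groups and principal components the 500 most variable genes. The smallest chi-square per gene between libraries of a group was 8.54, and none was a copy.

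CSPG5, LRFN5 and all gene lists were chosen with earlier results of these data known, and the 12 neural genes after it was known which identifiers have names. Named genes were the pair, matched list members, and for each of the pair the 5 named genes of at least 5 CPM most like it, of which 1 is not reported here. No sequence is shown because none was at hand for these genes or for miR-200a. Alternatives were other tests, scalings, filters and thresholds, thinning and leaving out each library.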

Additional observations from a re-analysis of the deposited data

Results flagged for a closer look

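Groups of 5 libraries were screened for a library apart from the rest (Dixon's test) in 31 genes, which include CSPG5 and LRFN5, in library totals and in the CSPG5 to LRFN5 count ratio. No library stood apart for CSPG5, LRFN5, their ratio or the totals. Of 66 groups screened 2 were picked out, where chance gives about 1 in 20. FXYD2 in naïve library 7 was at 13.2 CPM, apart from the other naïve libraries. CCNI in naïve library 2 was at 708.2 CPM, apart from the other naïve libraries.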

How the results depend on the processing

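The log2 fold changes of CSPG5 and LRFN5 stayed below 0 and within the spread between replicates of the reported values under all 19 alternatives. Neither gene was called in any of 20 settings, which do not include the alternative at an adjusted p of 0.1. DESeq2 was not run at 0.1, the threshold at which the study listed both genes as lower. CSPG5 passed the fold threshold of a call only with library size only (−0.60), without mimic library 9 (−0.64) and without mimic library 10 (−0.60). In the remaining settings CSPG5 could not be called whatever its p, so its lack of a call there shows nothing further. Leaving out single libraries gave −0.64 to −0.45 for CSPG5 and −0.89 to −0.64 for LRFN5. Scaling by library size only gave −0.60 and −0.82, with the median over all genes at −0.064. Over all genes tested, 12 were called higher and 2 lower. These counts were 36 and 5 with DESeq2 at the study settings and at default settings, 4 and 1 with a minimum count of 50, and 27 and 2 at an adjusted p of 0.1. Thinning to the smallest library, an alternative added after seeing the data for these counts, gave 8 and 1. Without single libraries 6 to 18 genes were called higher, with 6 without naïve library 2 and 7 without naïve library 4 or 6, and 2 were called lower each time. The larger count at an adjusted p of 0.1 follows from the looser threshold. Fewer genes were tested at the stricter minimum, but the cause of the change there and in the other settings was not tested. The r between deviations of CSPG5 and LRFN5 ran from −0.38 without mimic library 9 to 0.30 without mimic library 2, and the other 12 alternatives than that without mimic library 9 kept its sign. GDAP1L1 had a log2 fold change of 0.017 after thinning and kept its negative sign in the other 18 alternatives. The other 6 neural genes kept their sign, and none of the 7 was called in any alternative that tested it. The r between CSPG5 and FXYD2 and between LRFN5 and RAMP2 was also computed without each library, chosen after seeing the data, and kept its sign. No paired analysis was possible because columns carry other library numbers than the labels. LRFN5, with 29 to 151 counts per library, is limited by depth more than CSPG5, with 111 to 338.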
